A study of Mus musculus with 36 samples.

Results

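Olfr332, Olfr716, Olfr1383, Olfr1368 and Olfr1419 are 5 mouse olfactory receptor genes that were chosen because their RNA was higher after exposure to decanal and after exposure to octanal. They are 5 of the 1407 receptor genes (Olfr symbols) among the 57010 gene identifiers measured, and all 5 had enough counts to be tested in every comparison. The measurement was RNA sequencing of ribosomes pulled down with an antibody to phosphorylated ribosomal protein S6 (pS6) from olfactory epithelium. The animals were C57BL/6J wild-type males aged 8 weeks, habituated for 4 h in odorless chambers. A filter paper carrying 10 µL of odorant, or nothing for the controls, was then left with them for 90 min. The 36 libraries came from 12 groups of 3 mice, in 3 sets that the labels also give as batches. In the AD set the mice received an acetophenone-decanal mixture, decanal, acetophenone or no odor. In the OC set they received an octanal and cis-3-hexenol mixture, octanal, cis-3-hexenol or no odor. In the FM set they received a floral-mint mixture, a floral fragrance, a mint fragrance or no odor. Both binary mixtures were made of equal parts, so they held less of each odorant than the undiluted single odorant in the same volume. The labels call the 3 libraries of each group biological replicates.

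An olfactory sensory neuron usually expresses a single receptor gene, and an odorant that binds the receptor opens cyclic nucleotide-gated channels through the G protein Golf and adenylyl cyclase. Ribosomal protein S6 becomes phosphorylated in neurons that have fired, so RNA of receptors on activated neurons becomes enriched in the pull-down. Octanal and decanal are straight-chain saturated aldehydes, of which decanal has the longer carbon chain, and one receptor can respond to several odorants just as one odorant can activate several receptors.

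By their older MOR names the receptors fall into 4 families, MOR256 holding both Olfr1383 and Olfr1368, and they lie on 4 chromosomes. In GENCODE vM21 on GRCm38, Olfr332 (MOR284-2, ENSMUSG00000050813) is at chr11:58487950-58492555 on the minus strand. Olfr716 (MOR260-2, ENSMUSG00000073896) is at chr7:107138327-107150581 on the plus strand. Olfr1383 (MOR256-56, ENSMUSG00000107417) is at chr11:49519648-49527199 on the plus strand, and Olfr1368 (MOR256-15, ENSMUSG00000045474) at chr13:21141882-21145867 on the minus strand. Olfr1419 (MOR266-10, ENSMUSG00000067545) is at chr19:11868613-11875106 on the minus strand. The submitters' build was GRCm39, so these positions are those of the annotation used here for names and not those of the counting. The coding exons encode 344, 314, 311, 314 and 343 amino acids in the order Olfr332, Olfr716, Olfr1383, Olfr1368 and Olfr1419.

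To show how far the 5 receptors differ in sequence, the same 75 coding bases are given for each. They run from within the third membrane-spanning segment into the second intracellular loop. The capitals mark the 3 codons of the aspartate-arginine-tyrosine motif that most receptors of this class share, at a site involved in coupling to the G protein. The stretches are read 5′ to 3′ on the coding strand from the GRCm38 genome with GENCODE vM21 coding exons. They lie in coding exons at chr11:58490373-58490447, chr7:107147627-107147701, chr11:49524034-49524108, chr13:21142672-21142746 and chr19:11870828-11870902, in the order printed.
Olfr332: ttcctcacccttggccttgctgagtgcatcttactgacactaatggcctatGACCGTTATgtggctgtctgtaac
Olfr716: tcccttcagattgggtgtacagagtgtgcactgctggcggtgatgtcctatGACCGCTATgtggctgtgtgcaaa
Olfr1383: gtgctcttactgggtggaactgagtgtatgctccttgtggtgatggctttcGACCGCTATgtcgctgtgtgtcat
Olfr1368: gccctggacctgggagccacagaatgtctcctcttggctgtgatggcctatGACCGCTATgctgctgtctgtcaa
Olfr1419: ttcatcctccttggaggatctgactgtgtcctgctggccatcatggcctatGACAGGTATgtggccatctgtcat

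Even in this conserved stretch, pairs of the receptors shared between 46 of 75 bases (Olfr332 and Olfr1383) and 52 of 75 bases (Olfr332 with Olfr1419, and Olfr716 with Olfr1368). Over whole coding sequences the identity between any pair ran from 53.9% (Olfr1368 and Olfr1419) to 61.1% (Olfr1383 and Olfr1368). Their median identity to 1151 other receptor coding sequences was 54.6% to 56.2%. None of the 5 was among the 3 closest relatives of another.

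Library totals ran from 16039587 to 26388104 counts, of which 39146 to 168610 fell on receptor genes. Marker genes of mature olfactory sensory neurons were present in every library, with the summed level of 10 markers between 7570 CPM (counts in each 1 M of the scaled library) in the lowest control of the OC set and 27500 CPM in the highest octanal library. Red blood cell markers differed widely between groups, and their ranges are given beside the comparisons. The pull-down is from whole tissue, so fewer cells of a type and less RNA per cell cannot be told apart.

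With the acetophenone-decanal mixture Olfr332 was at 110.5, 137 and 128 CPM and with decanal at 216, 248 and 222 CPM, against 4.96, 5.07 and 6.32 CPM with acetophenone and 7.04, 5.42 and 6.43 CPM without odor. Every mixture library stood above every acetophenone library and below every decanal library. With the octanal-hexenol mixture it was at 159, 165 and 148.02 CPM and with octanal at 169, 129 and 178 CPM, against 6.93, 8.96 and 7.29 CPM with cis-3-hexenol and 6.20, 8.44 and 6.69 CPM without odor. The octanal and mixture libraries overlapped, as did the cis-3-hexenol and control libraries.

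Olfr716 was at 61.1, 66.6 and 95.6 CPM with the acetophenone-decanal mixture and at 121, 159 and 134 CPM with decanal, against 1.85, 1.89 and 2.28 CPM with acetophenone and 4.85, 4.14 and 6.65 CPM without odor. Here the 4 groups did not overlap, and acetophenone was below the controls. With the octanal-hexenol mixture it was at 62.0, 67.5 and 51.6 CPM and with octanal at 78.8, 51.4 and 79.1 CPM, against 4.01, 4.81 and 3.09 CPM with cis-3-hexenol and 1.88, 2.66 and 1.64 CPM without odor. The mixture overlapped with octanal, and all 3 cis-3-hexenol libraries lay above the controls.

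Olfr1383 was at 47.6, 55.4 and 40.7 CPM with the acetophenone-decanal mixture and at 62.0, 84.3 and 66.5 CPM with decanal, against 2.39, 2.16 and 2.82 CPM with acetophenone and 1.59, 2.29 and 2.61 CPM without odor. The mixture and decanal libraries were separate from each other and far above the other groups, which overlapped. In the OC set it was at 74.9, 76.8 and 90.3 CPM with the mixture and at 57, 38.2 and 76.9 CPM with octanal, against 1.74, 1.44 and 1.06 CPM with cis-3-hexenol and 1.74, 1.65 and 1.71 CPM without odor. It was the only one of the 5 with a higher mean in the octanal-hexenol mixture than with octanal.

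Reads of Olfr1383 may be divided with a near-identical copy, the annotated pseudogene Olfr1372-ps1, whose transcript matched it at 96.3% over 1795 bases. The copy averaged 3.77 ± 1.06 CPM with the acetophenone-decanal mixture and 0.824 ± 0.293 CPM with acetophenone (SD, n = 3 each). In the OC set it averaged 3.07 ± 1.13 CPM with the mixture, 1.95 ± 0.655 CPM with octanal, 7.40 ± 1.97 CPM with cis-3-hexenol and 6.60 ± 1.07 CPM without odor (SD, n = 3 each). In that set, then, the copy was high where Olfr1383 was low, and the values of Olfr1383 are uncertain to this extent. The other 4 receptors had no copy of at least 95% identity over at least 200 bases.

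Olfr1368 was at 47.6, 58.8 and 83.0 CPM with the acetophenone-decanal mixture and at 85.0, 101 and 102 CPM with decanal, against 6.76, 4.98 and 8.68 CPM with acetophenone and 5.92, 9.26 and 7.17 CPM without odor. The mixture was below decanal in every library, and acetophenone overlapped with the controls. With the octanal-hexenol mixture it was at 53.2, 44.5 and 58.1 CPM and with octanal at 52.6, 55.9 and 52.0 CPM, against 4.53, 3.74 and 3.51 CPM with cis-3-hexenol and 2.78, 2.13 and 3.28 CPM without odor. The octanal libraries lay inside the range of the mixture, and the cis-3-hexenol libraries above the controls.

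Olfr1419 was at 31.4, 28.2 and 36 CPM with the acetophenone-decanal mixture and at 36, 36.4 and 50.7 CPM with decanal, against 1.18, 1.03 and 1.26 CPM with acetophenone and 0.954, 1.90 and 1.61 CPM without odor. The highest mixture library lay just below the lowest decanal library, and both groups were far above the others, which overlapped. In the OC set its counts were low: it was at 11.4, 7.96 and 5.30 CPM with the mixture and at 17.5, 11.4 and 6.43 CPM with octanal, against 0.754, 0.904 and 1.38 CPM with cis-3-hexenol and 0.694, 0.590 and 0.0656 CPM without odor. The controls held 14, 10 and 1 counts of this gene, so its level without odor in the OC set is the least precise of these values. Relative to its mean, it also spread more widely over the octanal and the mixture libraries than the other receptors did.

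**Figure D1:**
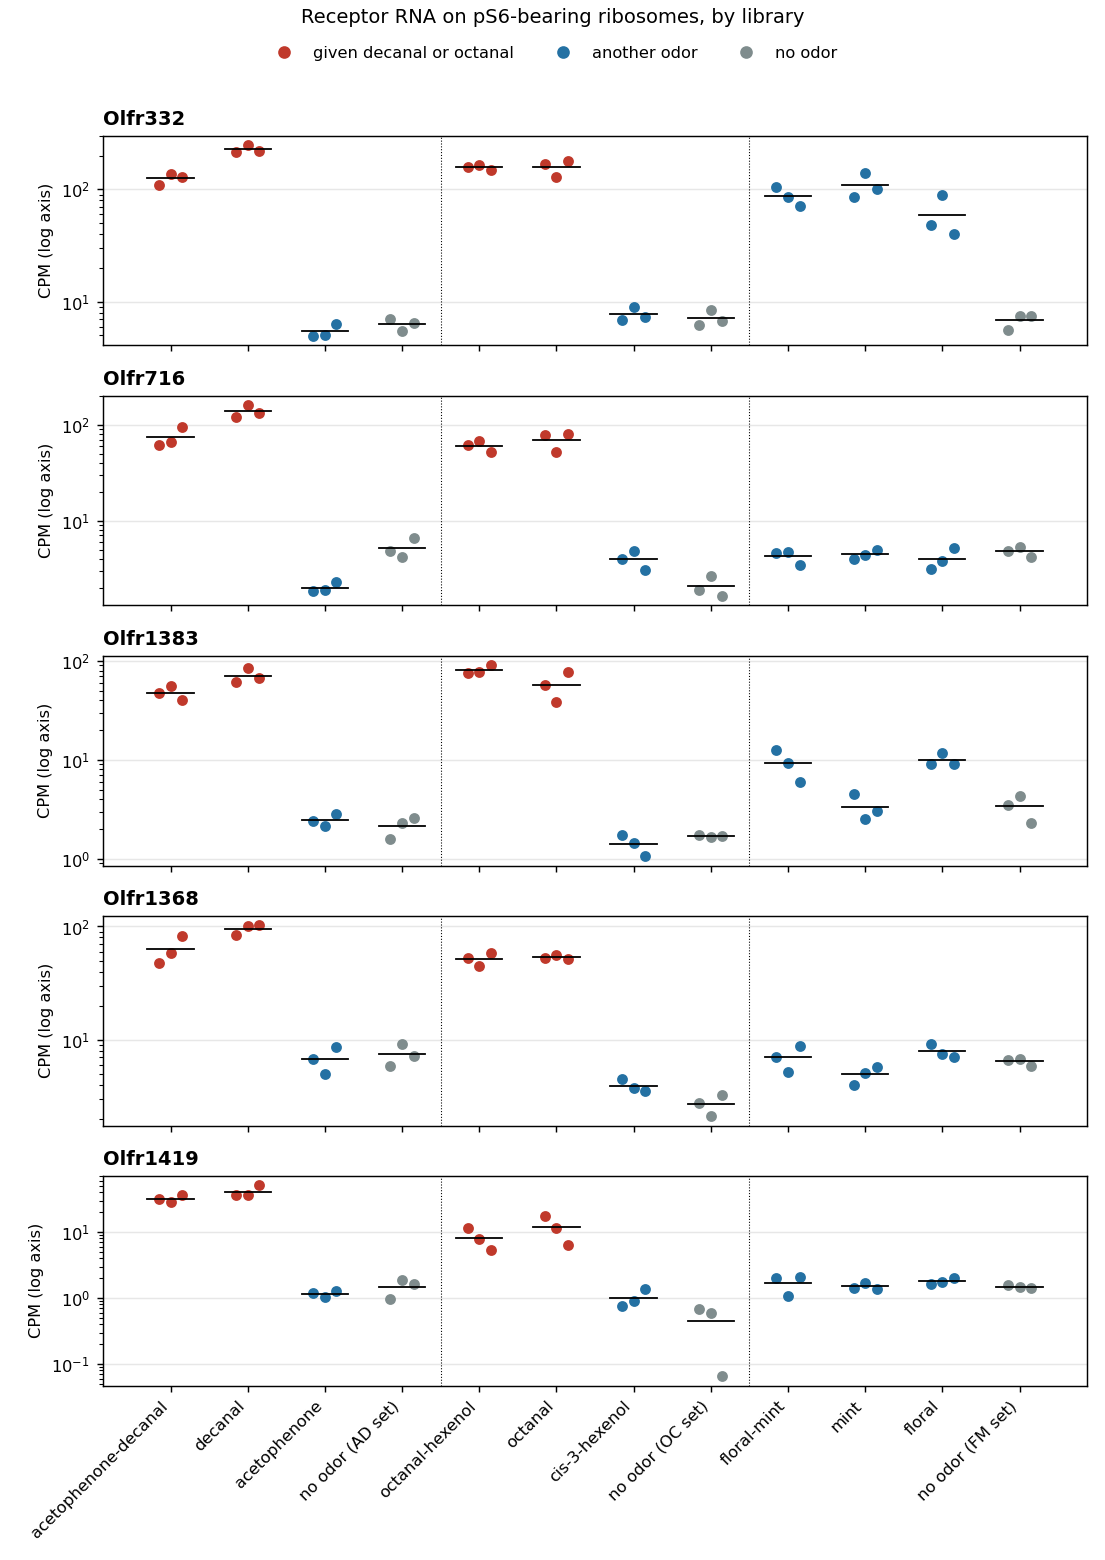
Level of each of the 5 receptors in every library (CPM, log axis) by group, in the AD, OC and FM sets; each point is 1 mouse and the bar is the group mean. All 5 are high with decanal, with octanal and with both binary mixtures; in the FM set Olfr332 is high with the fragrances and Olfr1383 is slightly higher with the floral fragrance and the floral-mint mixture.

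The 5 receptors were named for their levels with decanal and octanal alone, so each mixture was set against its other component. The list was made with earlier results of these data known, so these libraries may not be fully independent of it. All 5 receptors were called higher in the acetophenone-decanal mixture than with acetophenone, and 5.81% of the 912 receptor genes tested were. Olfr332, at 125 ± 13.6 CPM in the mixture and 5.45 ± 0.756 CPM with acetophenone (SD, n = 3 each), differed by a log2 change of 4.52 (95% interval 4.22 to 4.82, adjusted p = 3.377e-10 by edgeR's quasi-likelihood test with Benjamini-Hochberg adjustment). This was the smallest p of any receptor gene. Olfr716 differed by 5.21 (4.73 to 5.70, adjusted p = 8.324e-09), which is 37.0-fold and the greatest change of the 5, from a level with acetophenone that was itself below the controls. Olfr1419 differed by 4.77 (4.27 to 5.28, adjusted p = 3.426e-08) and Olfr1383 by 4.28 (3.86 to 4.70, adjusted p = 1.369e-08). The smallest of these changes was that of Olfr1368, 3.21 (2.71 to 3.71, adjusted p = 2.199e-06). The median log2 change was 4.52 over the 5 receptors, -0.24 over all receptor genes tested and 0.02 over all 19514 genes tested.

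In the same way all 5 were called higher in the octanal-hexenol mixture than with cis-3-hexenol, and 13.5% of the 902 receptor genes tested were. Olfr1383 showed the greatest change, 5.82 (95% interval 5.26 to 6.37, adjusted p = 1.85e-09), or 3.24 (adjusted p = 3.73e-07) when its counts were summed with those of its near-identical copy. Olfr332 followed with 4.34 (3.96 to 4.73, adjusted p = 9.8e-10), again the smallest p of any receptor gene. Olfr716 differed by 3.92 (3.44 to 4.39, adjusted p = 2.547e-08) and Olfr1368 by 3.72 (3.34 to 4.10, adjusted p = 3.115e-09). Olfr1419, with 233, 166 and 129 counts in the mixture and 16, 22 and 26 counts with cis-3-hexenol, had the smallest and least certain change, 3.02 (2.04 to 3.99, adjusted p = 0.001667). The median was 3.92 over the 5 receptors, -0.18 over all receptor genes and -0.05 over all 19568 genes tested. In both comparisons every mixture library exceeded every library of the single component for all 5 receptors.

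Markers of other cell types differed in both comparisons, where 25.7% and 12.9% of all genes were called. Counts close to these shares are no result about a cell type. Of 5 red blood cell markers, all 5 were higher in the acetophenone-decanal mixture than with acetophenone, with summed levels of 30600 to 37200 CPM and 2570 to 13100 CPM. Also higher were 4 of 5 neutrophil, 3 of 5 bone and osteoclast and 2 of 4 macrophage markers. Of 7 basal cell markers 1 was higher and 3 were lower. Of 10 mature sensory neuron markers 1 was higher and 7 were lower there, with summed levels of 16000 to 18500 CPM and 14800 to 22400 CPM. In the octanal-hexenol mixture 7 of the 10 neuron markers were higher than with cis-3-hexenol, at 21200 to 24800 CPM and 11000 to 15600 CPM. Lower there were 2 of 5 bone and osteoclast markers, 2 of 4 Bowman's gland markers, 2 of 7 basal cell markers, 1 of 5 neutrophil markers and 1 of 5 ensheathing glia markers. The red blood cell markers summed to 9090 to 20600 CPM in that mixture and 19500 to 28100 CPM with cis-3-hexenol, with ranges that overlap and a median log2 change of -0.67 over the 5 markers. No marker was at 0 in all libraries, and the part of these differences in the receptor values was not tested.

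**Figure D2:**
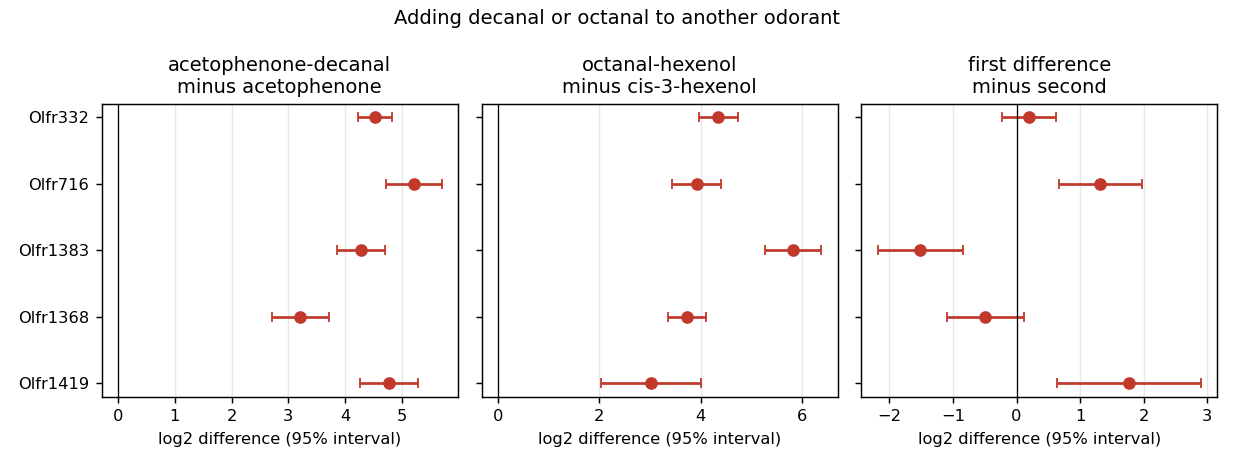
Log2 change of the 5 receptors in each binary mixture against its other component and, from the fit of both sets, the difference between these changes; points are estimates and bars are 95% intervals. All 5 are above 0 in both mixtures, and the interval of the difference lies above 0 for Olfr716 and Olfr1419, below 0 for Olfr1383 and across 0 for Olfr332 and Olfr1368.

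Whether adding decanal and adding octanal changed the receptors by different amounts was tested as a difference of these changes over both sets together, which crosses batches. Of 971 receptor genes tested, this difference, decanal minus octanal, was called above 0 for 4.12% and below 0 for 13.1%. The difference is signed, so a value below 0 can also come from a fall with decanal added. Olfr716 changed more when decanal was added than when octanal was added, by 1.32 on the log2 scale (95% interval 0.67 to 1.97, adjusted p = 0.003538), and Olfr1419 by 1.78 (0.64 to 2.91, adjusted p = 0.01934). For Olfr1419 the adjusted p was 0.0849 without cis-3-hexenol replicate 3 and 0.0508 without octanal-hexenol mixture replicate 3. Olfr1383 changed less when decanal was added, by -1.52 (-2.19 to -0.85, adjusted p = 0.001438), but the difference was 0.75 (adjusted p = 0.0552) with the counts of its copy included. Olfr332 and Olfr1368 gave differences of 0.20 (-0.22 to 0.62, adjusted p = 0.5093) and -0.49 (-1.09 to 0.11, adjusted p = 0.2322), so the interval for Olfr1368 reaches a difference of -1.09.

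These differences also contain the changes with acetophenone and cis-3-hexenol against their controls. Acetophenone minus cis-3-hexenol, those changes differed by -2.33 on the log2 scale for Olfr716 and by -1.43 for Olfr1419. For Olfr332, Olfr1383 and Olfr1368 the values were -0.335, 0.446 and -0.655. The no-odor controls of each set were also put in place of the other component, a choice made after the values were seen. These controls had served in choosing the receptors, so this is not an independent test. The difference was then -1.01 for Olfr716 (adjusted p = 0.02), -1.07 for Olfr1383 (adjusted p = 0.0171) and -1.15 for Olfr1368 (adjusted p = 0.00657). For Olfr332 it was -0.13 (adjusted p = 0.674) and for Olfr1419 0.34 (adjusted p = 0.73). Olfr716 thus changed direction, and Olfr1383 was the only one called on the same side with both choices, for its own counts. The single odorants against their controls, which chose the receptors and are given without a test, differed between decanal and octanal by 0.73 for Olfr332, -0.32 for Olfr716, -0.01 for Olfr1383, -0.58 for Olfr1368 and 0.18 for Olfr1419. The sign of the difference was therefore not the same in every comparison for Olfr716 and Olfr332, and for Olfr332 neither tested difference was called. It stayed the same for Olfr1368, for Olfr1419 and, by its own counts, for Olfr1383.

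Each mixture was also compared with the aldehyde alone, using libraries on which the receptors were chosen and a mixture that held less of the aldehyde. Choosing receptors for high levels with the aldehyde alone favours lower values in the mixture, so the calls here are no independent test. In the acetophenone-decanal mixture all 5 were at a lower level than with decanal in every library, with log2 changes of -0.36 to -0.89. Olfr332 was called, at -0.87 (95% interval -1.12 to -0.62, adjusted p = 0.002422), and 0.768% of receptor genes were called lower. Olfr716 was at -0.89 (adjusted p = 0.05112), and at an adjusted p of 0.0088 without mixture replicate 3. The adjusted p was 0.5142 for Olfr1383, 0.8236 for Olfr1368 and 0.9996 for Olfr1419. In the octanal-hexenol mixture none of the 5 was called against octanal, where 1.44% of receptor genes were called higher. By edgeR only Olfr1383 had an unadjusted p under 0.05, and DESeq2 called none either. The log2 changes there were -0.01 for Olfr332, -0.21 for Olfr716, 0.49 for Olfr1383, -0.04 for Olfr1368 and -0.52 for Olfr1419, and the libraries of the mixture and octanal overlapped for all 5.

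The other component of each mixture was compared with the no-odor controls, which also served in choosing the receptors. Olfr716 was called lower with acetophenone, by a log2 change of -1.38 (95% interval -1.88 to -0.87, adjusted p = 0.003985), where 0.877% of receptor genes were called lower and 12.4% higher. The other 4 receptors had log2 changes of -0.35 to 0.19 with acetophenone, with adjusted p of 0.4348 to 0.8271. Olfr716 was called higher with cis-3-hexenol, by 0.95 (0.42 to 1.48, adjusted p = 0.03737), where 8.09% of receptor genes were called higher. That call did not hold without control replicate 1 (adjusted p = 0.117), control replicate 3 (0.163), cis-3-hexenol replicate 1 (0.0804) or cis-3-hexenol replicate 2 (0.152). The median receptor gene was itself higher with cis-3-hexenol by 0.43, and with libraries scaled to it the change of Olfr716 was 0.45 (adjusted p = 0.192). Olfr1368 and Olfr1419 were at 0.53 (adjusted p = 0.114) and 1.09 (adjusted p = 0.2761), with every cis-3-hexenol library above every control. For Olfr332 and Olfr1383 the changes were 0.12 (adjusted p = 0.7274) and -0.25 (adjusted p = 0.67). Mature neuron markers summed to 14800 to 22400 CPM with acetophenone and 8680 to 10200 CPM in its controls, and to 11000 to 15600 CPM with cis-3-hexenol and 7570 to 10000 CPM in its controls. Red blood cell markers summed to 2570 to 13100 CPM with acetophenone and 15500 to 21000 CPM in its controls, and to 19500 to 28100 CPM with cis-3-hexenol and 78000 to 92600 CPM in its controls. Their part in the values of Olfr716 was not tested.

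The components of the fragrances in the FM set are not given in the sources used here. Olfr332 was high with all of them. It was at 105, 85.4 and 71.7 CPM with the floral-mint mixture, 48.6, 88.3 and 40.2 CPM with the floral fragrance and 85.8, 139 and 100.1 CPM with the mint fragrance, against 5.55, 7.47 and 7.5 CPM without odor. All 9 fragrance libraries lay above the controls, while the fragrances overlapped with each other. The log2 changes were 3.68 (95% interval 3.08 to 4.28, adjusted p = 9.697e-07), 3.11 (2.52 to 3.70, adjusted p = 6.79e-06) and 3.99 (3.38 to 4.59, adjusted p = 4.562e-07) in the same order. Among receptor genes 11.5%, 9.53% and 12.3% were called higher in these comparisons, again in that order.

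Olfr1383 was the other receptor called in this set. It was at 12.5, 9.24 and 6.01 CPM with the floral-mint mixture, 9.07, 11.9 and 9.15 CPM with the floral fragrance and 4.55, 2.53 and 3.03 CPM with the mint fragrance, against 3.52, 4.32 and 2.31 CPM without odor. The mixture and the floral fragrance were above every control, and the mint fragrance overlapped with the controls. The log2 change was 1.44 with the mixture (0.85 to 2.04, adjusted p = 0.004759), 1.56 with the floral fragrance (0.96 to 2.16, adjusted p = 0.002851) and -0.01 with the mint fragrance (adjusted p = 0.9844). The levels of its copy were alike in all 4 groups, between 0.833 and 0.939 CPM on average.

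Olfr716, Olfr1368 and Olfr1419 were called with none of the fragrances by edgeR or DESeq2, and their lowest unadjusted p was 0.07633. Olfr716 was at 3.12 to 5.13 CPM over the 9 fragrance libraries and at 4.23 to 5.33 CPM in the controls, with log2 changes of -0.26 to -0.11. Olfr1368 was at 3.97 to 9.23 CPM and at 5.86 to 6.84 CPM, with every floral library above and every mint library below the controls (0.30, adjusted p = 0.3243, and -0.38, adjusted p = 0.2473). Olfr1419 was at 1.06 to 2.08 CPM and at 1.40 to 1.60 CPM. The 95% intervals of their changes ran from -0.81 at the lowest to 0.86 at the highest on the log2 scale. Mature neuron markers summed to 20100 to 23800 CPM with the fragrances and 12600 to 14500 CPM in the controls of this set. Red blood cell markers summed to 28200 to 74100 CPM and 30300 to 32900 CPM, and the part of these differences was not tested.

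**Figure D3:**
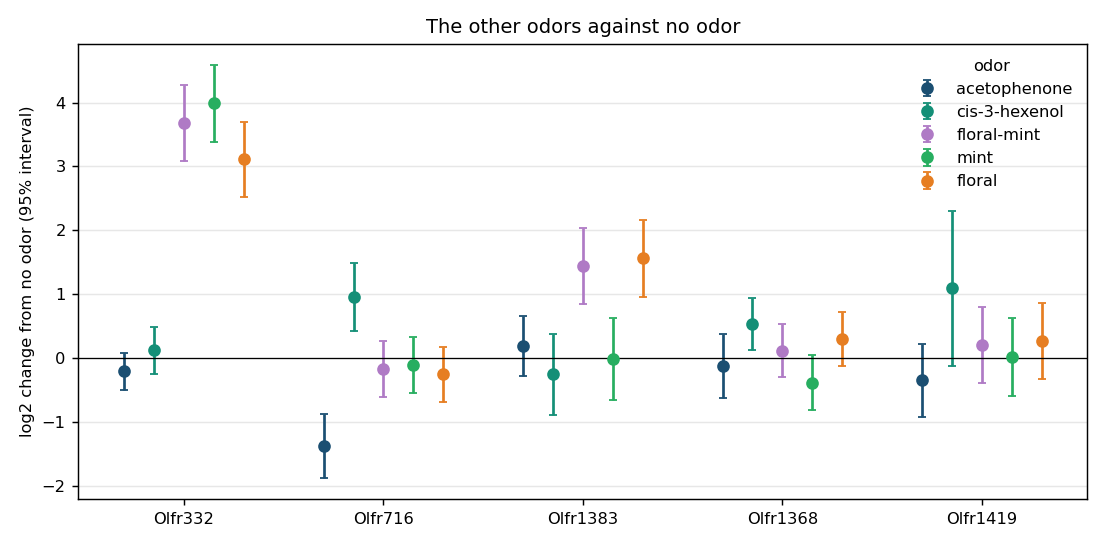
Log2 change of the 5 receptors against the no-odor controls of the set for acetophenone, cis-3-hexenol, the floral fragrance, the mint fragrance and the floral-mint mixture; points are estimates and bars are 95% intervals. Olfr332 lies between 3.11 and 3.99 with the fragrances, Olfr1383 at 1.44 and 1.56 with the floral-mint mixture and the floral fragrance, and Olfr716 is below 0 with acetophenone.

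As a share of all receptor counts in a library, the 5 receptors together were highest with decanal. They held 11.5% ± 0.753 of receptor counts with decanal and 7.04% ± 0.480 with the acetophenone-decanal mixture, against 0.324% ± 0.0899 with acetophenone and 0.626% ± 0.0856 without odor (SD, n = 3 each). With octanal and the octanal-hexenol mixture they held 5.31% ± 0.753 and 5.21% ± 0.314, against 0.425% ± 0.0565 with cis-3-hexenol and 0.558% ± 0.0366 without odor. The receptors were chosen on the decanal and octanal libraries, so these shares are a description. Olfr332 alone held 4.58% ± 0.231 of receptor counts with decanal and 2.40% with octanal, against 0.173% and 0.281% in the controls of their sets. In the FM set the 5 together held 2.24% ± 0.242 with the floral-mint mixture, 1.80% ± 0.479 with the floral and 2.39% ± 0.356 with the mint fragrance, against 0.724% ± 0.0134 without odor. Olfr332 alone held 1.79%, 1.28% and 2.11% in those groups, against 0.216% without odor.

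The share and the summed level gave different multiples of the controls. Relative to the controls of the set the summed share of the 5 was 18.4 times as high with decanal and 9.52 times as high with octanal, whereas their summed CPM was 25.4 and 25.1 times as high. The share is taken over the receptor counts of a library, which differ between groups themselves. With cis-3-hexenol the share was 0.762 of the control share while the summed CPM was 1.29 times that of the controls. Exact binomial 95% intervals of the share in single libraries, which cover counting error only, were 10.6% to 12.49% over the decanal libraries and 4.614% to 6.295% over the octanal libraries.

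**Figure D4:**
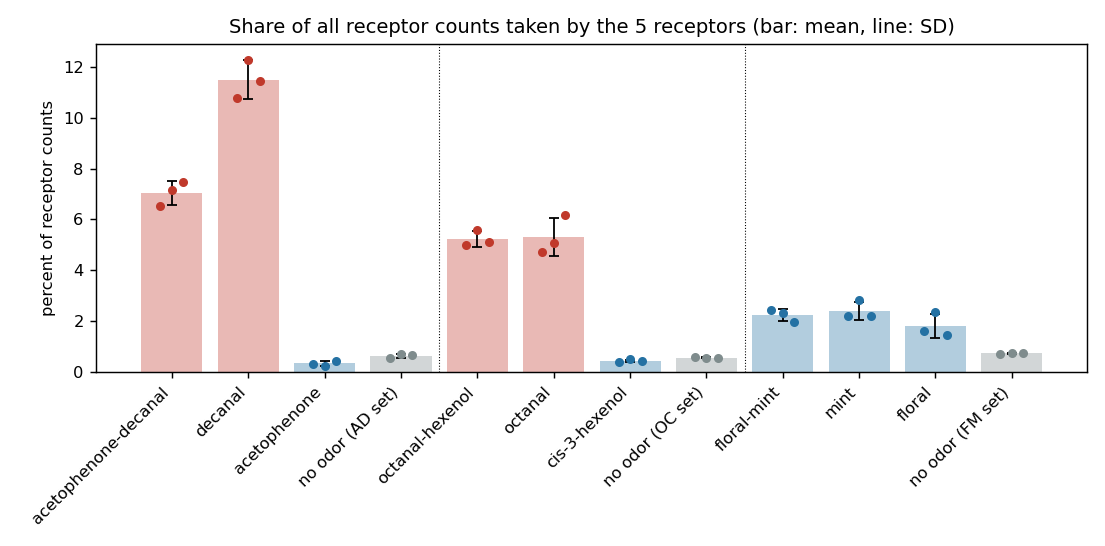
Share of all receptor counts held by the 5 receptors in each group (percent); each point is 1 library and the bar starts at 0 and ends at the group mean, with a line for the SD (n = 3). The decanal libraries sit between 10.8% and 12.3%, the octanal libraries between 4.72% and 6.16%, and all control libraries at or below 0.739%.

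The 5 receptors were selected on their log2 changes with decanal and with octanal against the controls of each set, and no test of these is given. With decanal they were 5.18 for Olfr332, 4.72 for Olfr716, 5.04 for Olfr1383, 3.69 for Olfr1368 and 4.79 for Olfr1419, where 7.79% of receptor genes tested were called higher. With octanal they were 4.48, 5.08, 5.07, 4.29 and 4.63 in the same order, where 21.6% were called higher. The list came with no threshold. Of 869 receptor genes tested in both sets, 69 were higher with decanal, 193 with octanal and 50 with both, and the 5 receptors are among these 50. Ordered by the smaller of the changes with decanal and with octanal, Olfr1383 stood first by its own counts, Olfr716 at place 4, Olfr1419 at 6, Olfr332 at 7 and Olfr1368 at 12. With its near-identical copy included, the change of Olfr1383 with octanal was 2.83, below the value of Olfr1368 in that order. Several genes outside the list had values as high, among them Olfr766-ps1 at 4.97, Olfr218 at 4.84 and Olfr117 at 4.65. Next to Olfr1368 were Olfr1404 at 3.78 and Olfr479 at 3.64, so the 5 are part of a longer run of receptors with both changes and have no gap below them.

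The level patterns of the 5 over all 36 libraries were close to each other, with Pearson's r of 0.864 to 0.964 on log2 CPM after the mean of each set was removed. The libraries share the decanal and octanal groups that chose the receptors, so this is a description. Of 830 receptor genes tested in all 3 sets, the gene outside the list with the pattern most like Olfr716, Olfr1383 and Olfr1368 was Olfr117 (r = 0.977, 0.95 and 0.96), which was also among the 5 closest to Olfr332 (r = 0.894) and Olfr1419 (r = 0.935). Olfr1116 was closest to Olfr332 (r = 0.933) and Olfr776 to Olfr1419 (r = 0.943). Olfr117, Olfr776 and Olfr1116 have near-identical copies with which reads may be shared. Olfr332 was the least like the other 4 (r = 0.864 to 0.9), and it is the one that was also high with all fragrances.

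Receptor genes are clustered along chromosomes, and close relatives often sit side by side. The 3 receptor genes on each side of each of the 5, 29 in all, and the 3 with the most similar coding sequence were therefore measured in the same comparisons. In the acetophenone-decanal mixture against acetophenone, 21 of the 29 neighbours were tested, of which 2 were higher and 4 lower, with a median log2 change of -0.46, beside 5.81% of all receptor genes called higher and 12.1% called lower. The higher ones, Olfr1418 at 4.14 (SE 0.42, adjusted p = 2.7e-05) and Olfr1420 at 3.28 (SE 0.22, adjusted p = 1.18e-06), are the direct neighbours of Olfr1419, which itself changed by 4.77. They are also among its closest relatives, with 68.9% and 65.5% of coding bases in common, and Olfr1418 has a near-identical copy that makes its own counts uncertain. Olfr30, a neighbour of Olfr332 and its closest relative at 64.1%, fell by 1.87 on the log2 scale (adjusted p = 0.000233). Against the no-odor controls, however, it was higher both with acetophenone, by 2.89 (adjusted p = 6.19e-05), and in the acetophenone-decanal mixture, by 1.02 (adjusted p = 0.0153).

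In the octanal-hexenol mixture against cis-3-hexenol, 22 neighbours were tested, of which 9 were higher, with a median of 0.63, beside 13.5% of all receptor genes called higher. The cluster around Olfr1383 on chromosome 11 held 5 of these 9. Olfr1380 differed by 4.13 (SE 0.26, adjusted p = 7.68e-08) and Olfr1384, the closest relative of Olfr1383 at 87.9% of coding bases, by 3.48 (SE 0.42, adjusted p = 0.000164). Olfr1381, Olfr1386 and Olfr1385 differed by 2.40, 2.31 and 2.07. In the acetophenone-decanal mixture against acetophenone the 6 neighbours of Olfr1383 were between -0.97 and 0.43, and Olfr1382 fell by 0.90 on the log2 scale (adjusted p = 0.0242). By the test of the difference over both sets, which crosses batches, all 6 had a difference called below 0, decanal minus octanal. The same held for 13.1% of all receptor genes. For Olfr1382 the changes had opposite signs, as it was at 0.80 with octanal added (adjusted p = 0.0726). The difference was -5.06 for Olfr1380 (SE 0.42, adjusted p = 2.98e-07) and -3.92 for Olfr1384 (SE 0.51, adjusted p = 1.77e-05), and it was smallest in size for Olfr1385 at -1.62 (adjusted p = 0.00845). Olfr1380, Olfr1381, Olfr1385 and Olfr1386 have near-identical copies, so their own counts are uncertain.

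Around Olfr716, Olfr715b and Olfr715 were higher in the octanal-hexenol mixture, by 3.20 (adjusted p = 0.000117) and 2.20 (adjusted p = 0.000868). Of the closest relatives of Olfr716, Olfr1532-ps1 was lower in the acetophenone-decanal mixture (-0.98, adjusted p = 0.0332) and higher in the octanal-hexenol mixture (3.34, adjusted p = 9.58e-05). These 3 genes also have near-identical copies. Olfr1364, among the closest relatives of Olfr1368 at 64.5%, was higher in both mixtures, by 1.66 (adjusted p = 0.000571) with decanal added and 3.08 (adjusted p = 6.37e-07) with octanal added. The tested neighbours of Olfr332 were between -1.87 and -0.03 with decanal added and between -0.57 and -0.12 with octanal added. Beside Olfr1419, Olfr1420 was at 1.455 (adjusted p = 0.00596) with octanal added, and Olfr1418 was not called there (-0.371, adjusted p = 0.626).

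**Figure D5:**
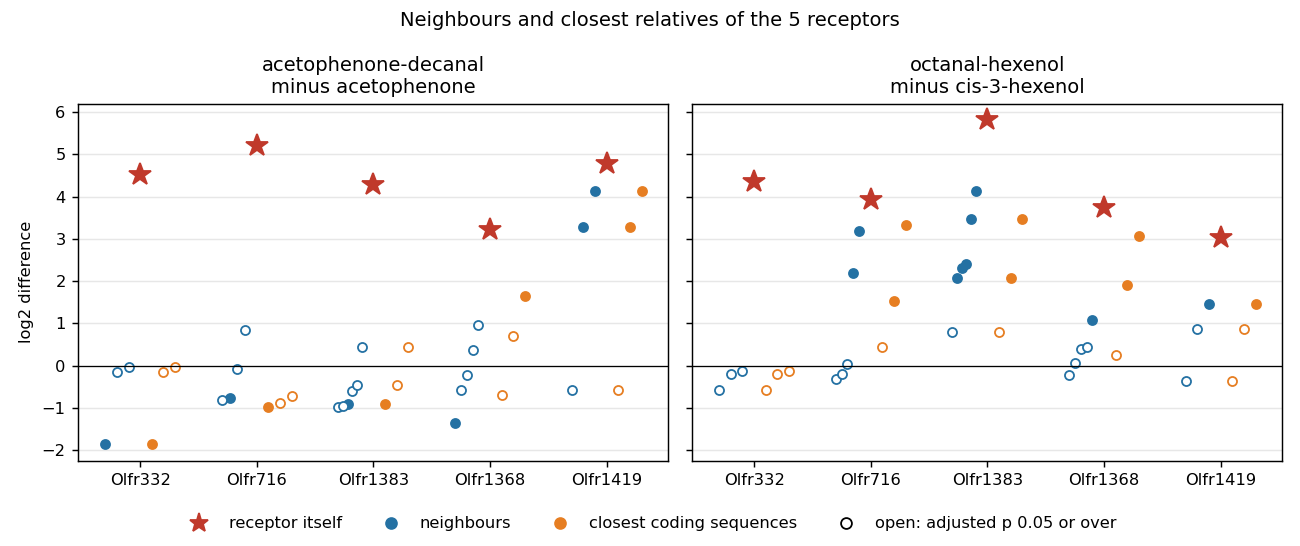
Log2 change of each of the 5 receptors and of the tested receptor genes next to it on the chromosome or closest to it in coding sequence, in the acetophenone-decanal mixture against acetophenone and in the octanal-hexenol mixture against cis-3-hexenol; stars are the 5 receptors, and open circles are genes with an adjusted p of 0.05 or over. The neighbours Olfr1418 and Olfr1420 stand near Olfr1419 in the first comparison, at 4.14 and 3.28, and the neighbours of Olfr1383 reach 4.13 in the second.

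Of 24 genes of olfactory transduction and receptor trafficking, 4 were higher and 11 lower in the acetophenone-decanal mixture than with acetophenone, beside 25.7% of all genes called. Gnal, which encodes the alpha subunit of Golf, differed by -0.79 (adjusted p = 0.000186), its exchange factor Ric8b by -0.82 (adjusted p = 0.000226), the phosphodiesterase Pde1c by -0.87 (adjusted p = 0.00029) and the chloride channel Ano2 by -0.83 (adjusted p = 0.00153). In the octanal-hexenol mixture 11 were higher and 1 lower than with cis-3-hexenol, beside 12.9% of all genes called. Omp (olfactory marker protein) differed by 0.91 (adjusted p = 0.00981), Rtp2, a receptor transport protein, by 0.90 (adjusted p = 0.0107) and the channel subunit Cnga2 by 1.07 (adjusted p = 0.0131). Against the no-odor controls, 12 of the 24 were higher in the acetophenone-decanal mixture, beside 21.4% of all genes called, and 19 were higher and 1 lower in the octanal-hexenol mixture, beside 32.5% of all genes called. The other components alone were also above the controls, with 17 genes higher with acetophenone, Gnal by 1.17 (adjusted p = 4.66e-05), beside 5.49% of all genes called, and 12 higher with cis-3-hexenol, beside 5.74%. Gnal, Ano2, Omp and Cnga2 are also among the mature neuron markers whose summed levels are given above.

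Of 15 immediate early genes, which neurons switch on after activity, 2 were higher and 1 lower in the acetophenone-decanal mixture than with acetophenone, which is below the 25.7% of all genes called. Fosl2 differed by 1.11 (adjusted p = 0.000644) and Arc by -0.71 (adjusted p = 0.000756), while Fosl2 was itself lower with acetophenone than in the controls, by -1.14 (adjusted p = 0.00257). In the octanal-hexenol mixture 3 were higher than with cis-3-hexenol, beside 12.9% of all genes, among them the transcription factors Egr4 at 1.21 (adjusted p = 0.00581) and Nr4a1 at 1.48 (adjusted p = 0.0421). Against the no-odor controls, 4 were higher and 1 lower in the acetophenone-decanal mixture, beside 21.4% of all genes called. Fosb was at 2.69 (adjusted p = 0.000338), Nr4a1 at 2.03 (adjusted p = 0.00032) and Egr4 at 2.01 (adjusted p = 0.00136). In the octanal-hexenol mixture 8 were higher and 1 lower than in the controls, beside 32.5% of all genes called. With acetophenone alone 3 were higher and 1 lower than in the controls, beside 5.49% of all genes called, and Fosb was higher by 2.52 (adjusted p = 0.00163). Of 20 genes that metabolise aldehydes and related compounds, 5 were lower in the acetophenone-decanal mixture, led by the fatty aldehyde dehydrogenase Aldh3a2 at -0.76 (adjusted p = 0.000108) and Aldh6a1 at -0.83 (adjusted p = 0.00121). In the octanal-hexenol mixture 2 were higher, Adh5 at 0.79 (adjusted p = 0.00732) and Cbr1 at 0.59 (adjusted p = 0.0265). Both counts are close to the shares of all genes called, 25.7% and 12.9%, and so are no result about this list. Against the other component of each mixture, the changes of the genes named here ran up to 1.48 on the log2 scale, while the smallest change of the 5 receptors was 3.02. Some genes outside the receptors changed by more than those named here. In the acetophenone-decanal mixture against acetophenone the median change was 3.62 over 5 neutrophil markers and 2.47 over 5 red blood cell markers.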

How the data were processed

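RNA from pS6 pull-downs of mouse olfactory epithelium was measured in 36 libraries, 3 mice in each of 12 groups. The authors deposited expected counts per gene for each set, of which 11.1% to 16.4% per library were fractional. The submitters' processing notes name, with no role or order, R 4.4.2, Salmon 1.10.1, STAR 2.7.10b and the GRCm39 build. The gene annotation is not given in the sources used here. A read matching several genes is divided between them in expected counts, so similar receptors are not fully separate measurements.

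Identifiers were named from GENCODE vM21 on GRCm38, which named 52029 of 57010. The remaining 4981 identifiers took 0.284% to 0.65% of library counts. Counts were rounded and tested with edgeR 4.0.16 (R 4.3.3, limma 3.58.1): filterByExpr with minimum count 10 and minimum total 15, TMM scaling, 4 groups of a set in 1 fit, 2-sided quasi-likelihood tests with prior count 0.125, and Benjamini-Hochberg adjustment over all genes tested. Calls needed an adjusted p below 0.05. The difference between sets came from 1 fit of the 24 libraries of the AD and OC sets (20631 genes). The fits were first tested on simulated data. No pair of libraries within a group was a duplicate, the lowest chi-square per degree of freedom being 9.71. CPM used TMM-scaled library sizes of each set, so levels are compared within a set, and not between genes, since they are not divided by length. Intervals are 95%.

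Near-identical transcripts were found with blastn 2.17.0, and coding sequences were aligned with Biopython 1.88. Alternatives were DESeq2 1.42.0, other scalings, no filter, replicate blocks, summed copies, other sample choices and leaving out each library.

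The 5 receptors, the gene lists and the comparisons were chosen with earlier results of these data known. The genes named were the 5 in every comparison, their 3 nearest receptor genes on each side, the 3 closest in sequence, the 5 most alike in pattern and up to 4 called members of each list. Closeness was planned on protein sequence and was measured on coding DNA. The names in the passage on receptors outside the list, and the choice of 4 or fewer genes from each neighbourhood, were made after their values were seen. A gene of these lists is not reported here.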

Additional observations from a re-analysis of the deposited data

Results flagged for a closer look

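Adding decanal and adding octanal differed in their effect for 3 of the 5 receptors by the test of the difference itself, over the AD and OC sets together. In this test 4.12% of 971 receptor genes were called above 0 and 13.1% below 0. Of all 20631 genes tested 5249 were called. The difference of log2 changes was 1.32 for Olfr716, -1.52 for Olfr1383 and 1.78 for Olfr1419, with decanal first. Against the no-odor controls, which had served in choosing the receptors, the difference was -1.01 for Olfr716 and 0.34 for Olfr1419 (adjusted p = 0.73). For Olfr1383 the difference between the mixtures was 0.75 with the counts of its near-identical copy included. Olfr1419 lost its call without cis-3-hexenol replicate 3 (adjusted p = 0.0849) or octanal-hexenol mixture replicate 3 (adjusted p = 0.0508). Each set is 1 batch, so the set and the aldehyde cannot be told apart in these differences.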

How the results depend on the processing

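The 5 receptors kept their calls in the acetophenone-decanal mixture against acetophenone under every alternative run (log2 changes of 2.96 to 5.39), and likewise in the octanal-hexenol mixture against cis-3-hexenol (2.75 to 6.01). Their calls against the no-odor controls in the fragrance groups, with acetophenone and in both binary mixtures also held. The controls of the AD and OC sets, and the decanal libraries of the next comparison, had served in choosing the receptors. In the acetophenone-decanal mixture against decanal 1 receptor was called. The number was 2 with edgeR's RLE (relative log expression) size factors, with the median receptor gene as scale and without the filter on low counts. It was also 2 with DESeq2 and with the replicate number as a block. The receptor added was Olfr716, with adjusted p of 0.0478, 0.0121, 0.00011, 0.000343 and 0.0172 in that order, and the count ran from 1 to 2 when each library was left out. With cis-3-hexenol against controls 1 receptor was called, and 0 with the median receptor gene as scale or with only the groups compared in the fit (adjusted p = 0.192 and 0.0761 for Olfr716), and 0 to 1 with each library left out.

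The difference between adding decanal and adding octanal turned round for Olfr716 with the no-odor controls (-1.01) and for Olfr1383 with copies summed (0.75). Same-numbered replicates did not clearly deviate together (correlations of -0.175 to 0.187, in no comparison all 3 over 0.1, and at most 2 of 3 closest to their own number). No pairing by number was seen, but such correlations cannot exclude it. The block changed no other call of the 5. Summed copies lowered the change of Olfr1383 with octanal to 2.83, against 5.07 for its own counts. The cause of the other changes was not tested. Counts over all genes moved more, in both directions. In the octanal-hexenol mixture against cis-3-hexenol 2523 genes were called, and 781 where libraries were scaled to the median receptor gene. The count was 338 and 336 without cis-3-hexenol replicate 2 and 3, and 702 and 1145 without mixture replicate 1 and 3. It rose to 3779 with only the groups compared in the fit, 3631 with DESeq2 and 3374 without the filter on low counts. It was 3097 without cis-3-hexenol replicate 1 and 3015 with the replicate block. Low counts limit Olfr1419 in the OC set.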
